A study of Mus musculus with 12 samples.

Results

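The comparison described here is the response to lipopolysaccharide (LPS) in cells whose Jak kinases were blocked, read as 2 libraries of wild-type cells given LPS and a Jak inhibitor together (WT_LPS_JAKi) against 2 libraries given the inhibitor alone (WT_JAKi). These are 4 of the 12 RNA sequencing libraries of the series, chosen by their labels and not by any measured value. All 4 came from wild-type RAW 264.7, an established macrophage line of BALB/c origin, so that every value below describes a single cell line and not primary macrophages. Treatments lasted 2 h, and both groups carried the inhibitor, whose name and dose the sources used here do not give. Another 2 libraries of untreated wild-type cells (WT_UT) and 2 of wild-type cells given LPS for 2 h without the inhibitor (WT_LPS) give the response with Jak kinases free to act. The remaining 4 libraries, of Parp14 -/- cells without or with LPS, entered only the shared estimate of spread.

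LPS, a component of the outer membrane of Gram-negative bacteria, is sensed by the receptor TLR4. The adaptor MyD88 leads from TLR4 to NF-kB and the MAP kinases, and the adaptor TRIF (gene Ticam1) leads to the kinases TBK1 and IKK-epsilon, the factor IRF3 and transcription of Ifnb1, the gene of interferon beta. Secreted interferon beta then binds its receptor, whose Jak kinases activate STAT factors and with them the interferon-stimulated genes. A block of the Jak kinases is meant to cut off this second round and to leave the responses to LPS that need no Jak kinase. How complete the block was in these cells was not tested.

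The 4 libraries held 36.6 to 40.8 M reads in genes, and all 12 held 35.9 to 45.7 M. Levels are in CPM, read counts scaled to the gene reads of each library, and changes are on the log2(CPM + 1) scale, which understates the change of genes near 0. Calls are genes with a p under 0.05 after Benjamini-Hochberg adjustment across 10899 tested genes, from limma with replicate number as a block. Values in pairs are replicates 1 and 2, errors are standard errors of the fit, and each group has n = 2. Of 19 listed macrophage symbols 16 were tested, all but Emr1, Mertk and Marco. Among them were Lyz2 (lysozyme, mean 9568 CPM in WT_JAKi) and Csf1r (the M-CSF receptor, 1976 CPM). None of the neutrophil, lymphocyte and stromal, epithelial or endothelial markers reached the minimum level for testing. Yet 8 of 12 dendritic cell and 5 of 9 osteoclast markers did, so reaching that level does not set macrophages apart from these types. Fewer cells of a kind and less RNA per cell cannot be told apart in these bulk samples.

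With Jak kinases blocked, LPS raised 2003 genes (18.4% of those tested) and lowered 6509 (59.7%). At least 2-fold changes were called for 483 genes upward and 1153 downward. The 483 genes took 2.39% of gene reads in WT_JAKi and 11.9% in WT_LPS_JAKi, and the median change of all genes was -0.27. Rescaling the libraries by the median of ratios moved that median to -0.03 and the calls to 3839 higher and 4341 lower, so that the share of calls that were upward went from 23.5% to 46.9%; at 2-fold the calls were then 612 and 654. Without the replicate block 1466 genes were higher and 5535 lower. Small changes in either direction therefore depend on the scaling, and are read below against the shift of all genes.

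The NF-kB system itself rose as a group. Of 16 genes of NF-kB subunits and inhibitors 14 were higher and 1, Cyld, was lower, against 18.4% and 59.7% of all genes. Their median change was 2.38, against -0.27 for all genes. Nfkbiz, the gene of the inducible co-factor IkB-zeta, stood at 13.8 and 15.0 CPM with the inhibitor alone and at 1355 and 1225 CPM after LPS (6.39 ± 0.07, adjusted p = 3.02e-17). Its groups were far apart and its replicates close. Nfkbia, the gene of IkB-alpha, went from 88.2 and 91.9 to 1031 and 754.9 CPM (3.28 ± 0.10), and Tnfaip3, the deubiquitinase A20 that restrains the pathway, from 15.9 and 20.5 to 683.6 and 611.0 CPM (5.08 ± 0.13). Rel, the c-Rel subunit, rose by 2.95 ± 0.06. No difference from the response without the inhibitor was called on this list by limma, edgeR or DESeq2, where 4 of its genes had an unadjusted p under 0.05 in limma.

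Upstream of it, 13 of 25 genes of the TLR4 receptor, its adaptors and kinases were higher and 6 lower (19 and 5 after rescaling), with a median of 0.13. The shares of all genes were 18.4% and 59.7%. The receptor gene Tlr4 fell from 127.1 and 89.1 CPM to 16.9 and 13.0 CPM (-2.77 ± 0.06), while Ticam1, the adaptor TRIF, rose from 22.2 and 24.7 to 92.7 and 95.9 CPM (1.97 ± 0.05). Ikbke, the kinase IKK-epsilon of the same branch, rose by 2.92 ± 0.07, and Peli1, a ubiquitin ligase of TLR signalling, by 3.55 ± 0.05. The libraries of the groups did not overlap for any of these 4 genes; 78.6% of all genes tested had groups that did not overlap. The kinase genes Tbk1 (0.02) and Chuk (0.10) were among the 6 members not called.

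Inflammatory cytokines rose as a group. Of 18 cytokine genes tested 17 were higher and 1 was not called, with a median of 2.55, where 18.4% of all genes were higher. Il1b, the gene of interleukin-1 beta, stood at 4.48 and 2.89 CPM in WT_JAKi and at 3386 and 2386 CPM in WT_LPS_JAKi, the largest rise of all genes named by the rule (9.27 ± 0.13, adjusted p = 4.86e-16). Without the inhibitor it went from 4.39 and 2.67 to 3283 and 2750 CPM (9.40 ± 0.13). The LPS libraries with and without the inhibitor overlapped, and the 2 responses differed by -0.13 ± 0.19 (adjusted p = 0.749). An antisense transcript, Il1bos, overlaps Il1b, and without a stated strand setting their reads cannot be told apart.

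Of the 18 cytokines, Csf1, the gene of M-CSF, had a called difference between the responses (-0.63 ± 0.15, smaller with the inhibitor, adjusted p = 0.0416), which was lost without the replicate block (0.333), in edgeR and in DESeq2; 4 were lower and none higher at an unadjusted p under 0.05 in limma. Lif, a cytokine of the interleukin-6 family, went from 0.799 and 0.907 to 837.1 and 787.8 CPM, a response that differed by 0.10 ± 0.09 from that without the inhibitor. Il1a rose by 7.44 ± 0.14 and Csf3, the gene of G-CSF, by 6.83 ± 0.08. Tnf, the gene of tumour necrosis factor, was already at 72.7 and 87.4 CPM and reached 4077 and 4285 CPM (5.70 ± 0.07, against 5.86 ± 0.07 without the inhibitor). Il6 reached 29.3 and 16.7 CPM from under 0.1 CPM, against 34.1 and 24.6 CPM without the inhibitor, and its responses differed by -0.37 ± 0.22 (adjusted p = 0.388).

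Of 16 chemokine genes 15 were higher and 1 lower, against 18.4% and 59.7% of all genes. Their median was 2.94, which became 5.71 in edgeR, a fit without the added 1 CPM. Ccl22 (7.01 ± 0.12), Ccl4 (6.69 ± 0.21) and Ccl5 (6.58 ± 0.08), which attract lymphocytes and monocytes, differed from the response without the inhibitor by no more than 0.15. Cxcl2, a neutrophil attractant, did differ: it went from 5.64 and 6.25 to 2015 and 2081 CPM with the inhibitor and from 3.96 and 4.15 to 2348 and 2302 CPM without it. Both LPS groups are high and do not overlap, and both groups without LPS are low and do not overlap either. The response was smaller with the inhibitor by 0.64 ± 0.06 (adjusted p = 1.58e-05), of which 0.46 ± 0.05 was a rise with the inhibitor alone. Cxcl10, an attractant of T cells that interferon and NF-kB both induce, reached 665.5 and 759.0 CPM with the inhibitor and 1036 and 1162 CPM without it, so that 64.3% of the rise in CPM remained. That difference (-0.65 ± 0.16, adjusted p = 0.0484) was lost without the replicate block (0.847), with edgeR (0.0555), with DESeq2 (0.227) and without WT_UT replicate 1 (0.216), WT_LPS replicate 1 (0.21), WT_JAKi replicate 2 (0.155), WT_LPS_JAKi replicate 1 (0.0621) or WT_LPS_JAKi replicate 2 (0.116).

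Fast regulators rose as well. Immediate early genes, which cells switch on without new protein synthesis, were higher in 19 of 23 cases and lower in 4 (median 1.91); Myc went from 1.86 and 4.09 to 142.0 and 133.4 CPM, Egr2 rose by 4.16 ± 0.21, Maff by 3.93 ± 0.14 and Gadd45b, a stress-response gene, by 5.12 ± 0.07. Of 16 genes of MAP kinase phosphatases and mRNA decay 12 were higher and 4 lower (median 1.87). For both lists the shares of all genes were 18.4% higher and 59.7% lower. Dusp5, a phosphatase of ERK, rose by 4.72 ± 0.09 and Zc3h12a, the RNase Regnase-1 that degrades cytokine mRNAs, by 4.07 ± 0.07, whereas Zfp36l2, an RNA-binding decay factor, fell from 258.3 and 184.9 to 19.0 and 15.8 CPM (-3.58 ± 0.08). A smaller response with the inhibitor was called for 3 of the 23 and 2 of the 16 genes (1.7% of all genes), and for 0 on either list without the replicate block. Dusp1, a further phosphatase, rose by 3.76 ± 0.10, against 4.34 ± 0.10 without the inhibitor. That difference (-0.59 ± 0.14, adjusted p = 0.0399 in limma) was lost without the block (0.425), in DESeq2 (0.0736) and without some single libraries.

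Effector genes followed the same course. Of 12 inflammatory enzymes 10 were higher and 1 lower (median 2.34), against 18.4% and 59.7% of all genes. Irg1, the enzyme that makes itaconate, rose from 12.1 and 13.5 to 3088 and 2999 CPM, Ptgs2, the prostaglandin synthase COX-2, from 18.0 and 27.7 to 1582 and 1758 CPM, and Nos2, the inducible nitric oxide synthase, from 0 and 0.0245 to 9.03 and 11.7 CPM. Differences from the response without the inhibitor were 0.04 ± 0.08 for Irg1, -0.09 ± 0.16 for Ptgs2 and -0.15 ± 0.21 for Nos2, none of them called. Saa3, an acute-phase protein, rose by 5.99 ± 0.18. All 10 costimulatory and adhesion genes were higher (median 2.50), among them Cd40 (4.86 ± 0.09), Cd83 (4.18 ± 0.07) and Icosl (4.10 ± 0.08), and 10 of 14 survival genes were higher and 3 lower (median 1.03), led by Traf1 (5.42 ± 0.14).

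**Figure D1:**
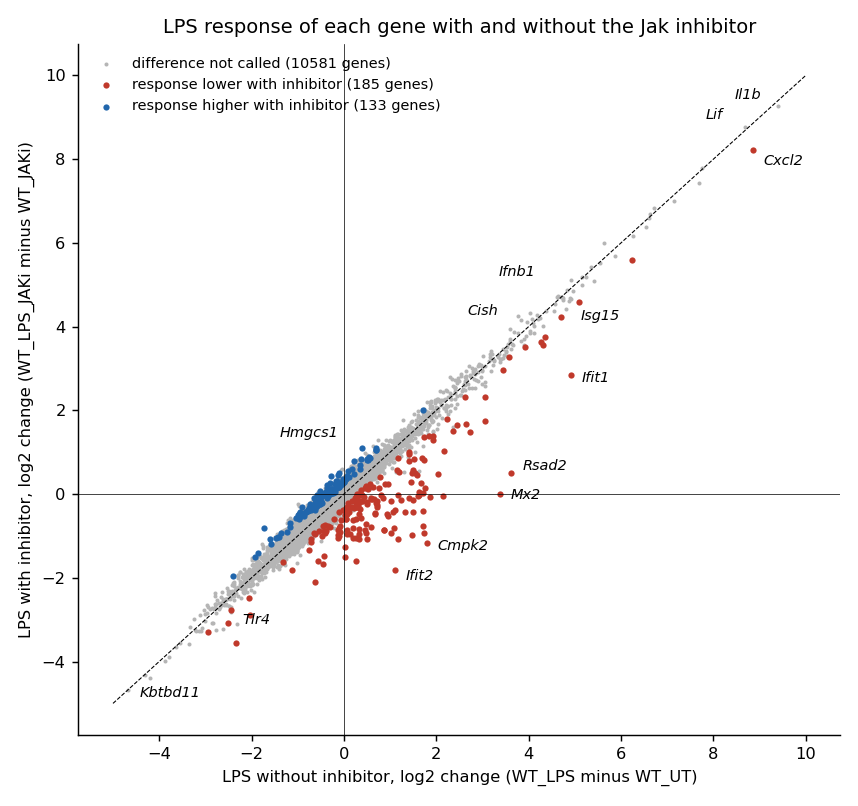
Log2 change after LPS without the inhibitor (horizontal axis) and with it (vertical axis) for each of 10899 genes, with the dashed line marking equal responses and colours marking a called difference. Most genes lie along the line from Kbtbd11 to Il1b, and a band of 185 red genes, with Mx2, Rsad2, Cmpk2 and Ifit2 at its edge, lies below it.

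Set side by side over all genes, the responses with and without the inhibitor were close. Without the inhibitor LPS raised 1959 genes (18.0%) and lowered 6847 (62.8%), or 3817 and 4380 after rescaling. Among genes higher by at least 2-fold, 445 were so in both responses, which is 92.1% of the 483 with the inhibitor and 85.9% of the 518 without it. The 2 responses share no library; across the 10899 genes, which are not independent replicates, their Pearson r was 0.967. The median gene of the 518 kept 96.2% of its rise in CPM when the inhibitor was present. The plot of both responses for each gene shows most genes on the line of equal response.

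A difference between the 2 responses was called for 318 genes. It was lower with the inhibitor in 185 of them (1.7% of genes tested) and higher in 133 (1.22%); these counts became 203 and 72 when libraries were rescaled by the median of ratios, 178 and 436 with the deposited scaling, 196 and 102 in edgeR, and 62 and 2 without the replicate block. The lower side of 185 went to 306 without WT_LPS_JAKi replicate 2 and was 137 to 151 without any other library. The higher side is the less stable one: it was 31 without WT_UT replicate 1, 80 without WT_UT replicate 2, 32 without WT_LPS replicate 1, 41 without WT_JAKi replicate 1, 68 without WT_JAKi replicate 2, 26 without WT_LPS_JAKi replicate 1 and 242 without WT_LPS_JAKi replicate 2. Of the 185 genes 63 differed by at least 2-fold, and 60 (32.4%) were on a list of 67 tested interferon-stimulated genes. The 10 most negative differences, which were those of Mx2, Rsad2, Cmpk2, Ifit2, Irgm2, Irgm1, Usp18, Igtp, Ifi202b and Ifit3, were called under every alternative that kept all libraries, the fit without the replicate block included. Ifit3 met the 5 CPM needed to be named only through WT_LPS (mean 5.51 CPM), the group where it was high. Its means in WT_UT, WT_JAKi and WT_LPS_JAKi were under 1 CPM, so its place among the 10 was favoured by that rule.

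Interferon beta itself was induced with the Jak kinases blocked. Ifnb1 stood at 0.0515 and 0.0735 CPM, 5 reads over both WT_JAKi libraries, and at 24.2 and 28.4 CPM in WT_LPS_JAKi (4.68 ± 0.12, adjusted p = 1.5e-13). Without the inhibitor it went from 0.0507 and 0 to 31.7 and 27.7 CPM (4.90 ± 0.12). The LPS libraries with and without the inhibitor overlapped, 88.4% of the rise in CPM remained, and the difference was -0.22 ± 0.17 (adjusted p = 0.511). Among the other genes of the interferon receptor and the interferon regulatory factors Irf4 rose (1.52 ± 0.12) and Irf8 (-1.35 ± 0.06) and Ifnar2, a chain of the receptor (-0.96 ± 0.05), fell. With Ifnb1 counted, 2 of 11 genes, Ifnb1 and Irf4, were higher and 7 lower (4 and 5 after rescaling). These shares are near the 18.4% and 59.7% of all genes, and the median was -0.24 against -0.27.

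The interferon-stimulated genes divide over this comparison. Of 67 tested, 59 rose and 2 fell after LPS without the inhibitor (median 0.93, against 18.0% of all genes higher), while with the inhibitor 16 rose and 39 fell (23.9% and 58.2%), with a median of -0.37. Those shares are near the 18.4% and 59.7% of all genes and the median is near their -0.27; after rescaling 24 were higher and 32 lower, with a median of -0.13 against -0.03. The difference between the responses was called lower for 60 of 67 (1.7% of all genes) and had a median of -1.20; edgeR called 60, DESeq2 57, and the fit without the replicate block 30. None had a called higher difference in limma, edgeR or DESeq2, and none a higher one at an unadjusted p under 0.05. The median level of the list was 27.1 and 32.3 CPM in WT_JAKi and 22.2 and 27.8 CPM in WT_LPS_JAKi, against 27.6 and 34.0 CPM in WT_UT and 58.5 and 61.9 CPM in WT_LPS.

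**Figure D2:**
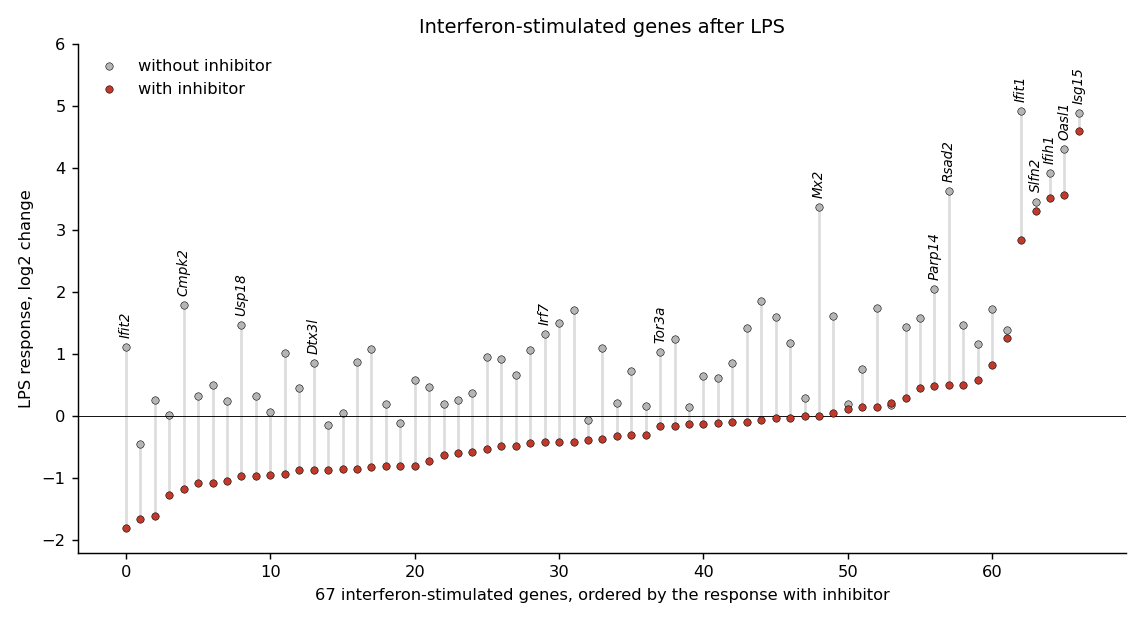
Log2 change after LPS of each of 67 interferon-stimulated genes without the inhibitor (grey) and with it (red), ordered along the horizontal axis by the change with the inhibitor. A group at the right end, with Isg15, Oasl1, Ifih1, Slfn2 and Ifit1, stays above 2.8 in red, while Mx2, Rsad2 and Parp14 lie high in grey and near 0 in red.

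A small class of interferon-stimulated genes rose by at least 2-fold in the Jak-blocked cells: 6 of 67, against 32 without the inhibitor. Over all 10899 genes tested the counts were 483 with the inhibitor and 518 without it. Isg15, a ubiquitin-like protein, went from 4.69 and 7.65 to 166.9 and 171.4 CPM with the inhibitor (4.60 ± 0.12), and from 4.69 and 6.32 to 172.0 and 208.3 CPM without it. Its LPS libraries with the inhibitor were both below those without, and the difference of the responses was not called (-0.28 ± 0.17, adjusted p = 0.394). Slfn2, a regulator of immune cell quiescence, rose from 109.1 and 123.5 to 1231 and 1095 CPM (3.31 ± 0.08) and kept 93.0% of its rise. Ifih1, the RNA sensor MDA5, reached 313.6 and 332.4 CPM against 395.7 and 422.2 CPM without the inhibitor, keeping 77.2%. Oasl1, an inhibitor of Irf7 translation, reached 299.2 and 325.4 CPM against 491.1 and 571.2 CPM, keeping 56.7%. For Ifih1 (-0.40 ± 0.06, adjusted p = 0.00224) and Oasl1 (-0.74 ± 0.11, adjusted p = 0.00153) the smaller response was called, though not without the replicate block (0.214 and 0.64) and, for Oasl1, not without the filter on low values (0.054).

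Ifit1, a binder of viral RNA, held an intermediate place. It went from 4.33 and 4.88 to 39.5 and 39.0 CPM with the inhibitor and from 3.42 and 4.52 to 142.8 and 154.9 CPM without it. The control groups overlap, and the 2 WT_LPS_JAKi libraries lie above both of them and below WT_LPS. Of the rise in CPM 23.9% remained, and the difference was -2.08 ± 0.11 (adjusted p = 1.97e-08).

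Other antiviral genes lost all or nearly all of their rise. Mx2, a GTPase that blocks viruses, stood at 4.36 and 6.91 CPM with the inhibitor alone and at 4.81 and 6.41 CPM with LPS added (0.01 ± 0.10, adjusted p = 0.918), whereas LPS alone took it from 5.10 and 6.30 to 67.6 and 69.0 CPM. The inhibitor libraries with and without LPS overlap fully, and the difference, -3.37 ± 0.14, was the most negative of all genes named by the rule (adjusted p = 1.87e-09). Rsad2, the antiviral enzyme viperin, went from 2.65 and 3.995 to 4.81 and 5.27 CPM (0.50 ± 0.10), which is 3.55% of its rise from 2.71 and 3.90 to 48.5 and 54.8 CPM without the inhibitor (difference -3.12 ± 0.15). Its small rise with the inhibitor was lost without the replicate block (adjusted p = 0.073). Ifi202b, of a family of DNA-binding proteins with close copies whose reads may be shared, stood at 8.48 and 11.1 CPM and then at 8.81 and 10.1 CPM, against 40.0 and 40.2 CPM in WT_LPS.

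A further class fell below the inhibitor control. Ifit2, a relative of Ifit1, went from 11.7 and 10.8 CPM to 2.08 and 2.997 CPM with the inhibitor (-1.80 ± 0.13, adjusted p = 1.46e-08) and from 10.4 and 10.4 to 21.6 and 25.7 CPM without it. Cmpk2, a nucleotide kinase that lies beside Rsad2, went from 10.1 and 12.01 to 4.16 and 4.55 CPM (-1.17 ± 0.07) against 36.5 and 39.6 CPM in WT_LPS. Usp18, the protease that removes ISG15 and damps the interferon receptor, went from 32.9 and 50.7 to 17.97 and 23.2 CPM (-0.97 ± 0.07) against 98.2 and 116.5 CPM. For all 3 the libraries given both agents were the lowest of the 4 wild-type groups and those given LPS alone the highest, with no overlap. On the list 32 of 67 genes were called lower with the inhibitor and higher without it, against 56 of all 10899 genes tested. None of the 67 was called for the inhibitor alone by limma, edgeR or DESeq2; in limma 7 were higher and 3 lower at an unadjusted p under 0.05, and their median change was 0.05.

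**Figure D3:**
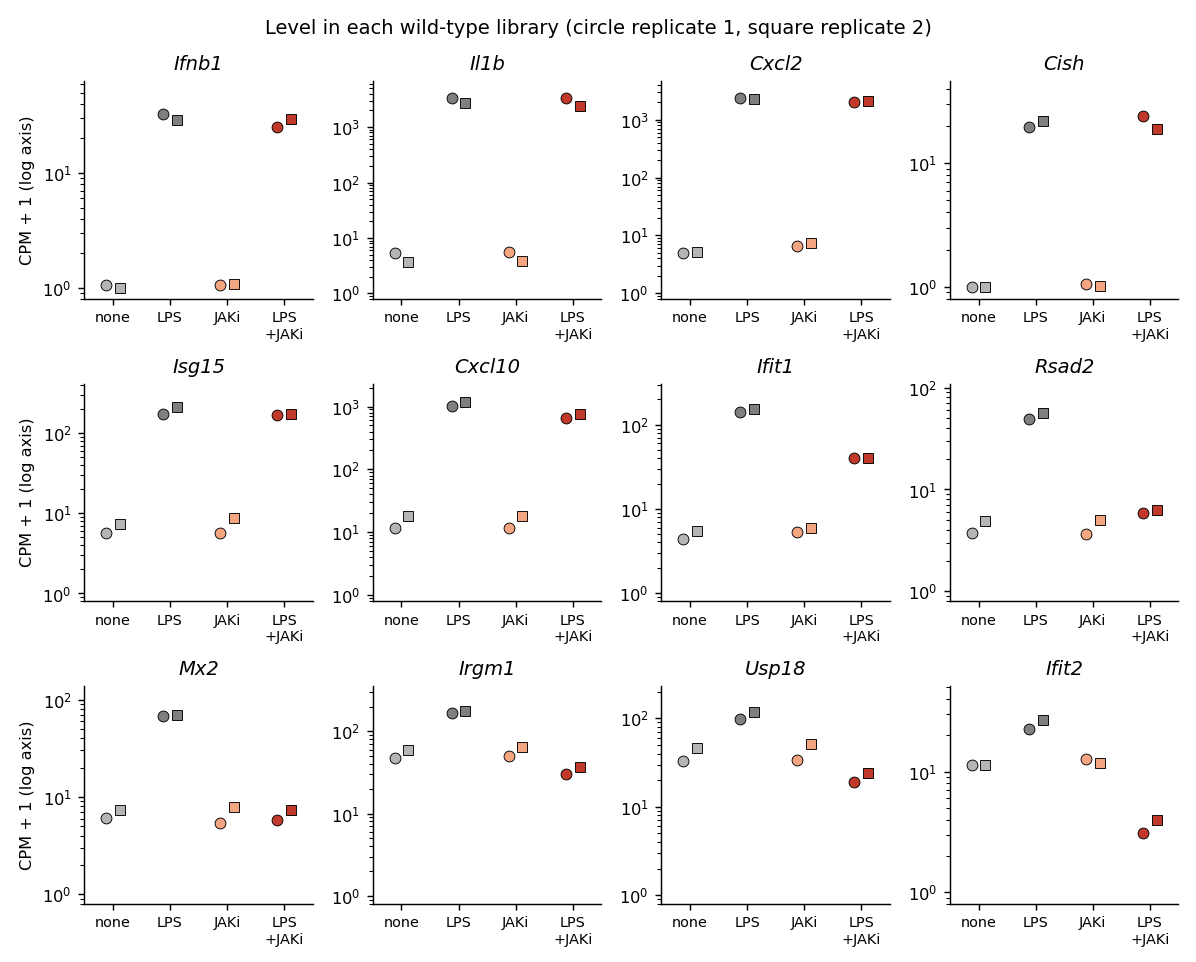
CPM + 1 on log axes for 12 genes in the 8 wild-type libraries (none, untreated; LPS; JAKi, inhibitor alone; LPS + JAKi, both), with circles for replicate 1 and squares for replicate 2. Ifnb1, Il1b, Cish and Isg15 rise with no called difference between the responses, Cxcl2 rises less with the inhibitor by 0.64 on the log2 scale, Mx2 stays at its control level, and Irgm1, Usp18 and Ifit2 drop below it.

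The promoters of 4 of these genes and of Cxcl2 are shown because they stand for the kept, the intermediate and the lost responses. They are the 250 bases before the RefSeq start (GRCm38.p6), with matches to an NF-kB motif (GGGNNNTTCC) in capitals for Ifnb1 and Cxcl2, and matches to the core of the interferon-stimulated response element, ISRE (GAAANNGAAA), in capitals for the other 3. Both motifs were searched on both strands, and overlapping matches run together. Over all 32851 promoters of the table, with 50 bases after the start included, 5.56% hold the NF-kB motif and 3.44% the ISRE core. Ifnb1, chr4:88522795-88523044, minus strand, kept response.
Ifnb1: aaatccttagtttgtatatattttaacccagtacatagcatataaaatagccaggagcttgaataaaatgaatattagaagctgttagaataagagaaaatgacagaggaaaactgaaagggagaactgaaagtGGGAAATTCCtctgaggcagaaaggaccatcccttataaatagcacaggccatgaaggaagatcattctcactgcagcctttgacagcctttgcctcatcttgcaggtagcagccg
Cxcl2, chr5:90903649-90903898, plus strand, kept for the most part.
Cxcl2: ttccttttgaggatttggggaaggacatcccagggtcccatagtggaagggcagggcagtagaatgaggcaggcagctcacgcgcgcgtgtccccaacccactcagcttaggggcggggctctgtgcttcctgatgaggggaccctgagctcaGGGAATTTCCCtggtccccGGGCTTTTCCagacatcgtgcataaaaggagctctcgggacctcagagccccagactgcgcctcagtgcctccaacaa
Isg15, chr4:156200819-156201068, minus strand, kept.
Isg15: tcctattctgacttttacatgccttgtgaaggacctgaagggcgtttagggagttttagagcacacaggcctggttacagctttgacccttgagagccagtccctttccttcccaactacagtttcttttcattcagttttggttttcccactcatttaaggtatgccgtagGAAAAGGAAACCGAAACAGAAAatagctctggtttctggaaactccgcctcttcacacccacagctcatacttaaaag
Ifit1, chr19:34640639-34640888, plus strand, intermediate.
Ifit1: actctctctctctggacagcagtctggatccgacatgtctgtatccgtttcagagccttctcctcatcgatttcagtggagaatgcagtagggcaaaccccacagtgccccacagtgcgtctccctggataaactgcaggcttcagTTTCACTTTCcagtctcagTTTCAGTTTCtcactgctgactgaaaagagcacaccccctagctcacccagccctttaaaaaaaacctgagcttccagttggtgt
Rsad2, chr12:26456453-26456702, minus strand, lost.
Rsad2: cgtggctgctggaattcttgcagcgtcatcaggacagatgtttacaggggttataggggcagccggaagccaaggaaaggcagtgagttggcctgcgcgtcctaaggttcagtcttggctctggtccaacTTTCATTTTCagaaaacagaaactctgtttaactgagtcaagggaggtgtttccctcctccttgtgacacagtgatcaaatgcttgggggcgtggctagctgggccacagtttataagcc
The Ifnb1 match begins 116 bases before the start, and Cxcl2 holds 3 matches at 97, 96 and 78 bases. The ISRE core occurs 3 times in Isg15, at 78, 72 and 66 bases, and 2 times in Ifit1, at 104 and 85 bases, and a single time in Rsad2, at 120 bases. The core is thus present both in Isg15, whose rise was kept, and in Rsad2, whose rise was lost. With 50 bases after the start included, it was also found in Ifih1, Irgm1, Irgm2, Igtp and Ifit3. No match was found for Slfn2 and Oasl1, which kept most of their rise, or for Cmpk2, Ifit2 and Irf7, which lost theirs. The promoters shown are therefore not typical of either class. A match describes the letters and does not show binding.

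In the interferon signalling chain, members fell or rose with the inhibitor in shares near those of all genes. A smaller response than without the inhibitor was called for 2 of 10 Jak and STAT genes. It was called for 3 of 11 genes of interferon beta, its receptor and the interferon regulatory factors. Of all genes 1.7% had such a call, and without the replicate block the 2 counts were 0 and 1. Irf7, the factor that amplifies interferon production, went from 25.2 and 36.5 to 17.97 and 27.8 CPM with the inhibitor (-0.42 ± 0.07) and from 26.0 and 36.8 to 72.0 and 87.5 CPM without it. Its libraries overlap between the inhibitor groups, and the fall was lost without the replicate block (adjusted p = 0.196), in edgeR (0.0844) and in DESeq2 (0.186). The difference of its responses, -1.75 ± 0.10, was lost without the block (0.125). Stat2, a part of the ISGF3 factor with Irf9, fell by 0.96 on the log2 scale, from 22.3 and 27.8 to 10.6 and 14.2 CPM. Without the inhibitor Stat2 rose by 0.33 ± 0.07. The difference of its responses was -1.30 ± 0.09 (adjusted p = 5.4e-07 in limma, and 0.0554 without the replicate block). Irf9 fell from 50.9 and 60.9 to 35.4 and 44.0 CPM. Of 10 Jak and STAT genes 2 were higher and 5 lower (5 and 4 after rescaling), against 18.4% and 59.7% of all genes, and their median was -0.12 against -0.27. The 2 that rose were Jak2 (2.63 ± 0.05) and Stat5a (1.93 ± 0.06), against 2.69 ± 0.05 and 1.72 ± 0.06 without the inhibitor, with no difference called.

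Feedback genes of cytokine signalling, many of them known as STAT targets, mostly rose. Of 14 tested 9 were higher and 2 lower (12 and 2 after rescaling, median 0.35), against 18.4% and 59.7% of all genes. Cish, an inhibitor of STAT5 signalling, went from 0.0515 and 0.0245 CPM, 3 reads over both libraries, to 23.1 and 17.9 CPM with the inhibitor, and from 0 and 0 to 18.8 and 21.1 CPM without it. The 2 LPS groups overlap, and the difference was -0.02 ± 0.15 (adjusted p = 0.95). Pim1, a kinase gene, rose by 4.99 ± 0.06, and Socs3, an inhibitor of interleukin-6 signalling, from 42.1 and 29.9 to 766.9 and 602.1 CPM (4.22 ± 0.08). The response of Socs3 was smaller with the inhibitor by 0.48 (adjusted p = 0.042). That difference was lost without the replicate block (0.921), without the filter (0.183) and in 6 of 8 fits without a library. Without the inhibitor Socs3 went from 28.95 and 18.07 to 650.3 and 591.7 CPM, so its level after LPS was not lower with the inhibitor. What differed was the control, which the inhibitor alone raised by 0.61 ± 0.08. Socs1, the inhibitor of interferon receptors, reached 0.985 and 0.672 CPM from 0.412 and 0.172 CPM with the inhibitor, against 2.74 and 2.54 CPM without it. At this low level 22.5% of the rise remained (difference -1.04 ± 0.17, adjusted p = 0.00253 in limma and 0.0772 in edgeR). Among wild-type libraries only those of WT_LPS reached the 1 CPM set for testing, a filter that favours a smaller response with the inhibitor. No conclusion on Socs1 is drawn from that difference. On a list of 10 targets of interleukin-10 and STAT3, 7 were higher and 2 lower (median 0.65), with Tnfrsf1b, a TNF receptor, at 3.23 ± 0.11 and Bcl3 at 2.48 ± 0.11.

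Of 15 listed interferon-inducible GTPases, which attack the vacuoles of intracellular microbes, 7 reached the level for testing. Gbp5, which is 1 of these, was under 1 CPM in WT_UT and WT_JAKi and met the level in its LPS libraries. A smaller response with the inhibitor was called for 7 of the 7 tested (6 without the replicate block, 5 in edgeR and in DESeq2), against 1.7% of all genes. Without the inhibitor all 7 rose (median 1.71), and with it 3 were higher and 3 lower (median -0.03), against 18.4% and 59.7% of all genes. Irgm1 went from 48.9 and 62.9 to 29.1 and 35.6 CPM with the inhibitor (-0.77 ± 0.06) and from 46.2 and 58.2 to 167.1 and 177.8 CPM without it, the 2 directions being called. Irgm2 (-0.92 ± 0.08 against 1.73 ± 0.08) and Igtp (-1.08 ± 0.08 against 1.17 ± 0.08) moved likewise; the annotated spans of this pair overlap, so part of their reads may be shared or lost. Gbp5 and Gbp3 kept a rise, of 1.74 ± 0.11 and 1.68 ± 0.11, but Gbp5 reached only 3.45 and 2.97 CPM against 9.59 and 11.6 CPM in WT_LPS, and its difference was lost in edgeR (adjusted p = 0.184) and DESeq2 (0.258).

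Genes of MHC class I presentation moved little, 6 of 19 higher and 10 lower (9 and 4 after rescaling, median -0.17). Of all genes 18.4% were higher and 59.7% lower, with a median of -0.27. Tap1, a chain of the peptide transporter, stood out with a fall from 28.6 and 31.4 to 8.78 and 11.2 CPM (-1.50 ± 0.07, adjusted p = 5.75e-11) where LPS alone left it at 30.8 and 34.2 CPM from 31.2 and 32.4 CPM. The difference, -1.53 ± 0.10, was called in every fit. Tap2, the other chain, fell by 0.47 with the inhibitor and by 0.45 without it.

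Parp14, an ADP-ribosyltransferase and the gene knocked out elsewhere in the series, is itself induced by interferon. It stood at 74.7 and 102.4 CPM with the inhibitor alone and at 109.8 and 137.6 CPM with LPS added (0.49 ± 0.06), against 314.8 and 419.2 CPM in WT_LPS and 76.4 and 99.7 CPM in WT_UT. Of its rise in CPM 12.6% remained, and the difference was -1.56 ± 0.08 (adjusted p = 1.81e-08); without the replicate block the adjusted p was 0.0515 for the difference and 0.0561 for the rise with the inhibitor. Its neighbours Parp9 and Dtx3l, whose proteins form a complex, fell with the inhibitor from 72.7 and 74.6 to 47.4 and 51.0 CPM and from 49.97 and 52.6 to 25.2 and 30.3 CPM, and both rose without it (to 85.6 and 92.8 CPM and to 78.6 and 92.3 CPM). The spans of Parp9 and Dtx3l overlap on opposite strands.

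**Figure D4:**
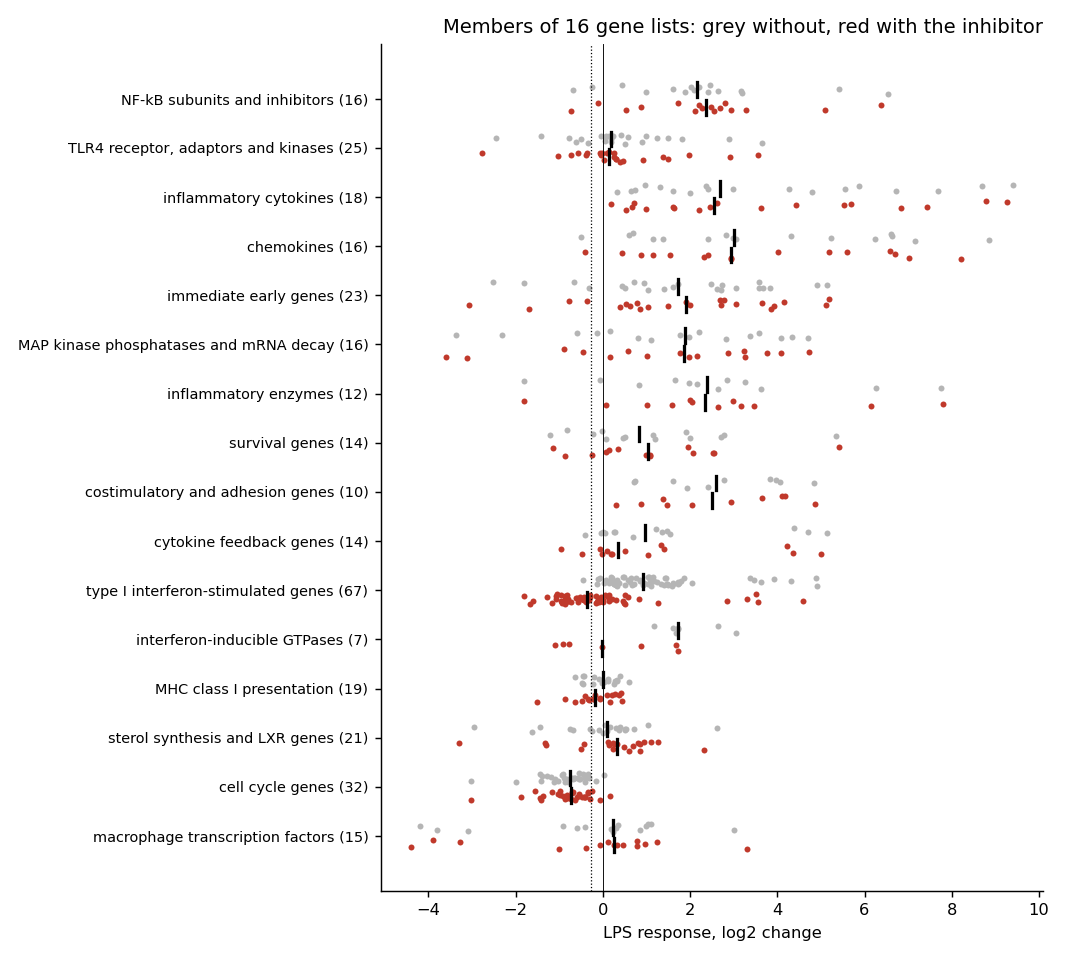
Log2 change after LPS of the tested members of 16 gene lists (number in brackets), grey without and red with the inhibitor; points are genes, black bars list medians, and the dotted line the median of all genes with the inhibitor. Red and grey medians lie close together for the inflammatory lists, and far apart for the interferon-stimulated genes (-0.37 against 0.93) and the GTPases (-0.03 against 1.71).

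The largest falls were shared with the response without the inhibitor. Kbtbd11, a gene of the BTB-Kelch family, dropped from 273.5 and 234.1 to 8.29 and 9.72 CPM (-4.67 ± 0.08) and by the same -4.67 ± 0.08 without the inhibitor. Among regulators, Bhlhe41 (-4.39 ± 0.21) and Klf4 (-3.88 ± 0.09), transcription factors of resting macrophages, fell, while Cebpd, an inflammatory factor, rose by 3.30 ± 0.13. Of 15 macrophage transcription factors 8 were higher and 5 lower (median 0.25), against 18.4% and 59.7% of all genes (median -0.27). S1pr1, a receptor of sphingosine-1-phosphate (-3.998 ± 0.21), Lhfpl2 (-3.65 ± 0.11) and Rnf144b, a ubiquitin ligase (-3.55 ± 0.14), completed the list of largest falls with Zfp36l2 and Abcg1. None of these had a called difference from the response without the inhibitor except Abcg1. Among the macrophage markers 4 of 16 were higher and 6 lower (8 and 3 after rescaling), against the same 18.4% and 59.7% of all genes. Fcgr1, a receptor of IgG, fell from 117.1 and 105.0 to 28.0 and 20.6 CPM, and Csf1r from 1979 and 1973 to 1245 and 1184 CPM. Cd36 went the other way, with a rise of 0.61 that was the largest on the list.

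Cell cycle genes were lower as a group: 30 of 32 fell and 1 rose, against 59.7% of all genes lower, with a median of -0.73 (26 fell and 2 rose after rescaling, median -0.46). E2f2, a factor of S-phase entry, went from 60.2 and 57.3 to 6.78 and 5.87 CPM (-3.03 ± 0.08), and Cdc6, which licenses replication origins, from 48.8 and 54.9 to 11.6 and 15.1 CPM (-1.89 ± 0.07). Ccne1 (-1.43 ± 0.06) and Cenpf (-1.56 ± 0.07) fell too, and for none of these 4 was a difference from the response without the inhibitor called. Markers of other myeloid states moved in both directions. Of 9 listed osteoclast markers 5 were tested, and 3 were higher and 2 lower (3 and 1 after rescaling), against 18.4% and 59.7% of all genes. Ocstamp and Dcstamp, fusion genes of osteoclasts, rose by 2.69 ± 0.12 and 1.45 ± 0.19, while Nfatc1, also on that list, changed by -0.82. Among 8 dendritic cell markers 4 were higher and 4 not called, with Itgax at 1.75 ± 0.12. The part of a change of cell state in the results above was not tested.

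Genes of sterol synthesis were the main named group whose response was larger with the inhibitor. Of 21 genes of sterol synthesis and its control 15 were higher and 5 lower with the inhibitor (median 0.33), against 18.4% and 59.7% of all genes. Without it 10 were higher and 8 lower (median 0.10), against 18.0% and 62.8% of all genes. The difference was called higher for 7 (1.22% of all genes) and lower for 2 (1.7% of all genes). Hmgcs1, the first committed enzyme of the pathway, went from 138.9 and 124.3 to 298.4 and 268.0 CPM with the inhibitor (1.10 ± 0.04) and from 141.9 and 135.1 to 190.9 and 175.2 CPM without it (0.40 ± 0.04). The 2 libraries given both agents were the highest of the 8, with no overlap, and the difference was 0.70 ± 0.06 (adjusted p = 2.72e-06), called without the replicate block too. Mvd, a later enzyme that is not among the 21, stood at 56.7 and 55.6 CPM and then at 59.8 and 58.9 CPM with the inhibitor, against a fall from 62.1 and 57.5 to 39.6 and 42.9 CPM without it (difference 0.60 ± 0.08). Also outside the 21, Aacs, an enzyme that feeds ketone bodies into lipid synthesis, differed by 0.57 ± 0.09 (adjusted p = 0.00136; 0.0693 without the replicate block).

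**Figure D5:**
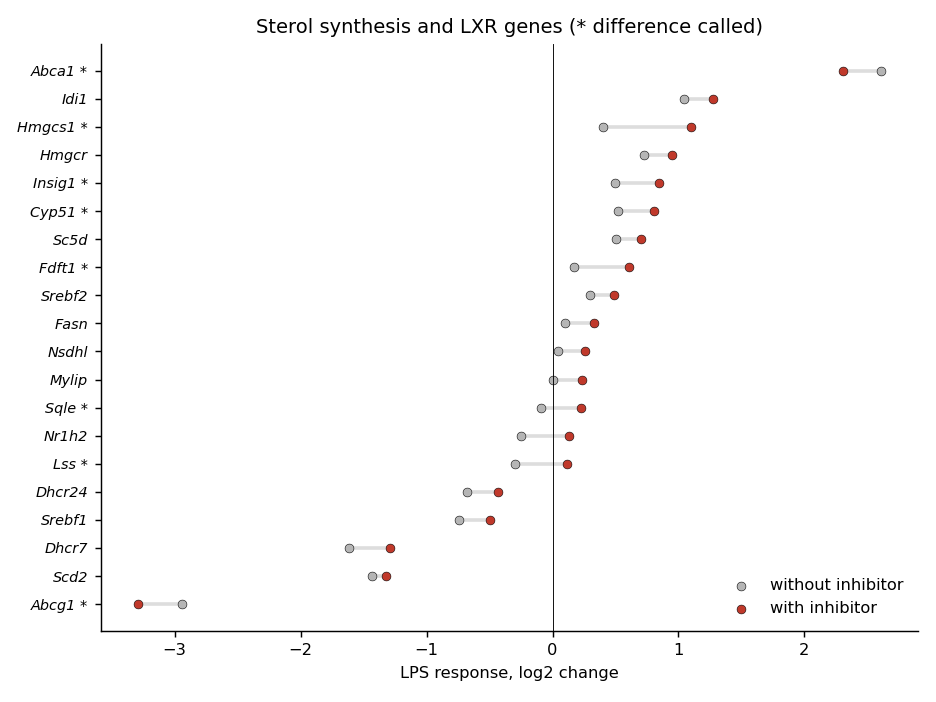
Log2 change after LPS of 20 of the 21 genes of sterol synthesis and LXR control, grey without and red with the inhibitor, with stars for a called difference. Red lies to the right of grey for 18 genes and to the left for Abca1 and Abcg1.

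The count of 7 was 7 in edgeR and in DESeq2, 5 to 8 without each library, and 1 without the replicate block, where Hmgcs1 alone passed on this list. The 2 genes with a lower difference were the cholesterol exporters Abca1 (2.31 ± 0.05 against 2.61 ± 0.05) and Abcg1 (-3.29 ± 0.05 against -2.94 ± 0.05), targets of the LXR receptors; both differences were lost without the block (adjusted p of 0.66 and 0.631) and in most fits without a library. Outside the list, Neat1, a long non-coding RNA, fell less with the inhibitor than without it (-0.80 ± 0.11 against -1.72 ± 0.11), from a control level that the inhibitor alone had lowered from 182.8 and 186.7 to 93.1 and 115.0 CPM; the difference was not called without the replicate block (0.369) or without the filter (0.0885). Adat3 and Zbtb26 met the rule at small differences (0.58 ± 0.14 and 0.56 ± 0.12) that most alternatives ended.

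The inhibitor alone changed little that could be detected with 2 libraries a group. WT_JAKi against WT_UT gave 4 called genes (0.0367% of those tested): Cxcl2, Fos (0.48 ± 0.06) and Socs3 (0.61 ± 0.08) were higher and Neat1 (-0.83 ± 0.11) was lower. The count was 4 in edgeR and 6 in DESeq2. It was 2 without WT_UT replicate 2, 1 without WT_JAKi replicate 2 and 0 without the replicate block, where limma gave 25 higher and 86 lower genes at an unadjusted p under 0.05.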

How the data were processed

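The deposited table gives CPM per gene symbol and library. The authors made these CPM from read counts with TopHat2 2.1.0, HTSeq and edgeR on builds named mm10 and GRCm38, per the submitters' processing notes. Their edgeR version, the strand setting and the annotation do not appear in the sources used here. RNA was total RNA taken through a TruSeq RNA preparation, per the labels' protocols. Lines that name no gene (5 HTSeq summary lines) were dropped, which left the 58.95 to 64.06% of alignments that lay in genes, and each library was rescaled to its gene reads. All values were whole reads within 0.02 reads, so counts were recovered for edgeR and DESeq2. Further per-sample columns (4) that matched no label were not used.

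The CPM rescaled to gene reads were put on a log2(CPM + 1) scale and fitted by limma 3.58.1 (R 4.3.3, trended prior). Genes needed 1 CPM or more in 2 or more of the 12 libraries. The model had 6 group means and the replicate number as a block (residual degrees of freedom 5). The difference of responses is an interaction term. The replicate numbers come from the labels, which name no shared day: replicate 1 minus 2 correlated across genes in all 15 pairs of groups (r 0.468 to 0.737). Nothing in the labels says that replicates were separate cultures, and p-values reflect the spread of these samples alone, possibly a technical one. Other settings tried were no filter, a 5 CPM filter, a pseudocount of 0.25, the median of ratios, the deposited scaling, no block, only the libraries compared, edgeR 4.0.16, DESeq2 1.42.0 and each library left out; for the response without the inhibitor and the inhibitor alone they were added after the data were seen. The code was checked on simulated data.

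The comparison, the members and the gene lists were chosen with earlier results of these data known. Named genes were the 12 largest rises and 8 largest falls (called, 5 CPM or more on average, groups not overlapping), the 10 most negative and 6 most positive differences, up to 4 called members of each list, and the followed genes Parp14, Dtx3l, Parp9, Ifit1, Mx1, Rsad2, Irf7, Cish, Socs3, Socs1, Ifnb1, Il6, Il1b, Tnf, Cxcl10 and Nos2. Predicted genes and date-like symbols (27) are not named, and not every gene that met the rule is described; genes named outside it (Csf1, Fos, Irf9, Lyz2, Tbk1, Chuk, Cyld, Il1bos) were picked after their values were seen. Some list members are counted but not reported by name here. Percent of rise is the gain in mean CPM with the inhibitor over that without it. Overlaps of genes are from GENCODE M21. Reads with more than 1 position were not counted in genes, which lowers families of near-identical copies such as Gbp, Irgm, Oas1, Ifit3 and Ifi202b. RefSeq promoters matched 49 of the 63 genes with a 2-fold lower difference, too few for a motif share of that set, which is not given.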

Additional observations from a re-analysis of the deposited data

Results flagged for a closer look

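The following named genes moved in opposite called directions after LPS with and without the inhibitor, with a called difference between the 2 responses in limma. All but Aacs were lower with the inhibitor and higher without it. The differences on the log2 scale were -2.96 for Cmpk2, -2.91 for Ifit2, -2.66 for Irgm2, -2.48 for Irgm1, -2.44 for Usp18, -2.25 for Igtp and -2.13 for Ifit3. They were -1.93 for Mx1, -1.75 for Irf7, -1.73 for Dtx3l, -1.30 for Stat2 and -0.95 for Parp9. Aacs rose with the inhibitor (0.21) and fell without it (-0.36), a difference of 0.57. The falls of Mx1 and Irf7 with the inhibitor are the least certain: that of Mx1 (0.696 and 1.23 to 0.520 and 0.388 CPM) was lost after rescaling by the median of ratios (adjusted p = 0.0714), in edgeR (0.0626), in DESeq2 (0.0857) and without WT_JAKi replicate 2 (0.306) or WT_LPS_JAKi replicate 2 (0.145). The fall of Ifit3 was lost in DESeq2 (0.0773) and without WT_LPS_JAKi replicate 1 (0.0656), and the rise of Aacs without WT_JAKi replicate 2 (0.101) or WT_LPS_JAKi replicate 2 (0.0829). The fall of Aacs without the inhibitor was not called after rescaling by the median of ratios.

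Over all tested genes 71 were called in opposite directions, 56 of them lower with the inhibitor and higher without it, and for 69 the difference was called. After rescaling by the median of ratios there were 62, of which 35 were among the 71. Groups of 2 libraries are too small for a check of single outlying samples.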

How the results depend on the processing

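The counts with the inhibitor moved with the scaling: 3839 genes were higher after the median of ratios, 4037 in edgeR and 3939 in DESeq2, and 4149 and 3667 were lower in edgeR and DESeq2. Without the inhibitor, 3817, 3989 and 3942 were higher and 4380, 4227 and 3693 lower under the same 3. Genes with a lower difference numbered 62 without the replicate block and 137 to 306 with a library left out. Genes with a higher difference numbered 40 with no filter, 72 after the median of ratios, 436 with the deposited scaling, 2 without the replicate block, 43 with only the libraries compared, 60 in DESeq2 and 26 to 242 with a library left out. The inhibitor alone gave 1 gene with no filter, 0 without the replicate block (25 higher and 86 lower at an unadjusted p under 0.05 in limma) and 1 to 3 with a library left out. Ifi202b with the inhibitor changed sign, from -0.04 to 0.20 after the median of ratios and 0.24 in edgeR. Counts with the inhibitor were 1736 to 1890 higher and 6040 to 6162 lower with a library left out. Without the replicate block the differences of Parp14, Irf7, Ifih1, Oasl1, Stat2, Aacs, Neat1, Cxcl10, Dusp1, Socs3, Tlr4, Abca1, Abcg1, Nlrc5, Adat3, Zbtb26 and Csf1 were not called. Nor were the changes with the inhibitor of Parp14, Rsad2, Irf7 and Fcgr3, or the changes of Cxcl2, Fos, Socs3 and Neat1 with the inhibitor alone. For genes named by the rule, no other difference or change with the inhibitor that the text gives as called was lost without the block. The cause of these changes was not tested. Of the named genes' values under alternatives, 1480 kept their side and direction with the inhibitor, 18 lost and 4 gained a call; for the differences the numbers were 1858, 104 and 6. With 2 libraries a group and 36.6 to 40.8 M reads, genes under 1 CPM were tested only where another group was higher.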
